A study of Mus musculus with 17 samples.

Results

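Endothelial cells line every blood and lymph vessel, and brown adipose tissue, a fat depot that burns lipid to make heat, is among the most densely vascularised tissues. This account follows 37 genes of that compartment in RNA sequencing libraries of mouse brown adipose tissue: endothelial identity genes together with the ligands and receptors that steer vessel growth. They were taken by symbol from a table of raw counts for 55414 genes, and each symbol matched 1 row. Of the 37 members, 36 had enough reads to be tested, along with 17717 genes in all; Esm1 did not.

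The libraries came from C57BL/6J mice, a common inbred strain, kept at 22 °C. HFD knockout (5 libraries) and chow knockout (3 libraries) mice were Acbp BAd-KO, a conditional deletion of Acbp in brown adipocytes, fed a diet with 45% of its calories from fat for 12 weeks or a standard chow. HFD wild-type (5 libraries) and chow wild-type (4 libraries) mice were labelled as without the deletion and ate the same diets. Acbp, listed as Dbi, encodes the acyl-CoA-binding protein; the deletion is aimed at brown adipocytes, not at endothelium. The labels used here name no Cre driver, age or sex and do not say whether each library was 1 animal, so p-values measure the spread between libraries, which may be technical. In bulk tissue, fewer cells of a type and less RNA per cell cannot be told apart.

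Vascular endothelial growth factors (VEGFs) made by adipocytes and other tissue cells bind receptor tyrosine kinases on endothelium: VEGF-A acts mainly through Kdr (VEGFR2) and Flt1 (VEGFR1), VEGF-C through Flt4 (VEGFR3). A further system tunes how stable a vessel is: angiopoietin 1, from cells around the vessel, activates the receptor Tie2 (Tek), and angiopoietin 2, released by the endothelium, competes with it. Notch signalling from Dll4 decides which endothelial cells lead a sprout.

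Each HFD knockout library held 60162398 to 100538712 counts, each HFD wild-type library 59976980 to 104874625, each chow knockout library 47165132 to 49715461 and each chow wild-type library 39585167 to 43884449. Dbi averaged 128 ± 21.3 CPM (counts scaled to an equal library total after TMM adjustment, which lowers the weight of a few abundant genes) in HFD knockout and 701 ± 55.6 CPM in HFD wild-type libraries (SD, n = 5 each), and 97.2 ± 7.93 CPM (SD, n = 3) in chow knockout and 1022 ± 64.6 CPM (SD, n = 4) in chow wild-type libraries, with no overlap between genotypes on either diet. The brown fat uncoupling protein gene Ucp1 averaged 2288 to 3101 CPM in the 4 groups. Transcripts of skeletal muscle were uneven: 12 muscle markers summed to 1622 to 6321 CPM in 4 HFD libraries (knockout 2, 4 and 5 and wild-type 1), 2.35 to 18.1 CPM in the other 6 HFD libraries and 1.41 to 1542 CPM on chow. Hepatocyte markers summed to 252 to 330 CPM in HFD knockout 4 and 5 and wild-type 5, against 20.7 to 101 CPM in the other 7 HFD libraries. All library numbers of one diet lie apart from those of the other, so diet and library numbering cannot be told apart. Within HFD, knockout 1 continues the number run of the 5 wild-type libraries, and knockout 2 to 5 form a later run. Within chow, wild-type 1 and 2 have much earlier numbers, and wild-type 3 and 4 share a run with all chow knockout libraries. The number run used below as a covariate marks HFD knockout 2 to 5 alone and leaves this chow break out.

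Levels of different genes were compared as CPM per kilobase of exon, with exon lengths from an annotation of another build. Vegfb and Vegfa stood highest in every group: Vegfa had 66.1 ± 9.85 and Vegfb 56.0 ± 3.26 CPM per kb in HFD knockout libraries (SD, n = 5), against 51.2 ± 11.2 and 57.4 ± 5.90 CPM per kb in HFD wild-type libraries (SD, n = 5). On HFD those neighbours in the order did not separate beyond their spread. On chow Vegfa had 71.2 ± 12.9 and Vegfb 52.2 ± 3.14 CPM per kb in knockout libraries (SD, n = 3), which stood further apart. In chow wild-type libraries they had 62.1 ± 2.84 and 59.0 ± 6.13 CPM per kb (SD, n = 4). Next came Cdh5, the adhesion molecule VE-cadherin that joins endothelial cells, at 39.2 ± 5.65 CPM per kb in HFD knockout and 48.3 ± 2.97 CPM per kb in HFD wild-type libraries (SD, n = 5 each). Lowest in HFD libraries were Prox1, the transcription factor of lymphatic endothelium, at 0.0877 ± 0.0439 CPM per kb in HFD knockout and 0.117 ± 0.108 CPM per kb in HFD wild-type libraries (SD, n = 5 each), and Esm1, a secreted product of sprouting tips. Esm1 had 1 to 7 counts in HFD knockout, 1 to 6 in HFD wild-type and 0 to 2 in chow wild-type libraries, and 0 counts in all 3 chow knockout libraries.

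**Figure D1:**
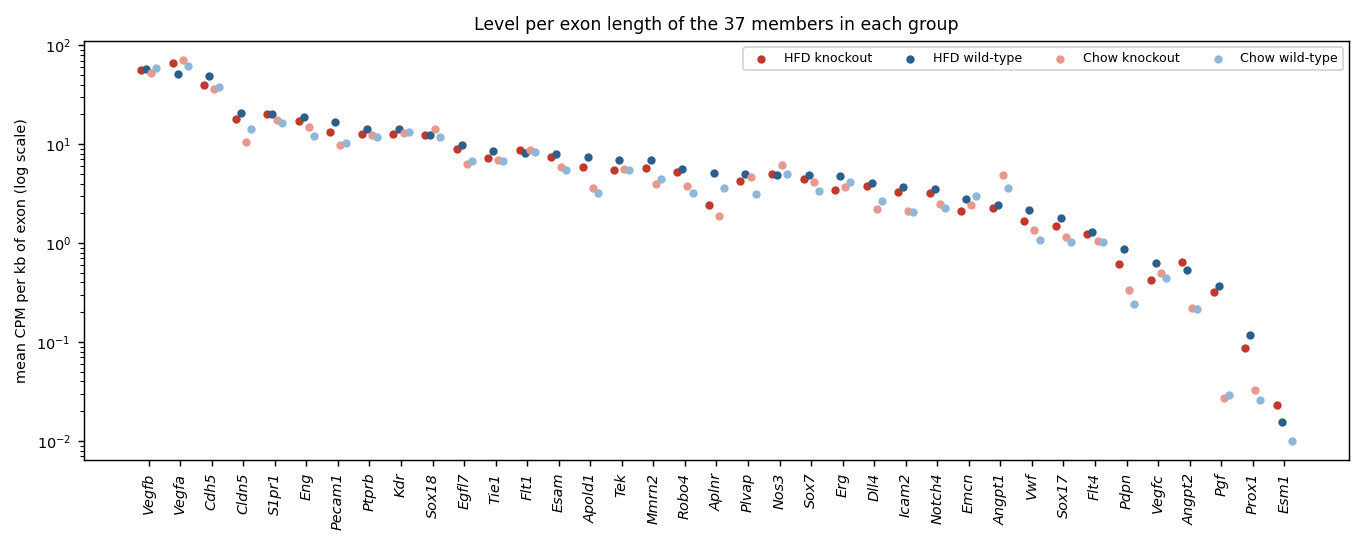
Mean CPM per kilobase of exon (log axis) of the 37 members in the 4 groups, ordered from the highest to the lowest level in HFD wild-type libraries. Vegfb, Vegfa and Cdh5 stand at the top and Prox1 and Esm1 at the bottom; Esm1 in chow knockout libraries is at 0 and has no point.

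Start-site windows of 300 bases (250 before and 50 after each start, RefSeq, build GRCm38.p6) were matched to 21 members, which have 28 windows; the counts themselves were made on GRCm39. Of 4 members whose levels are described next, Emcn, Notch4, Robo4 and Dll4, the windows are shown because ETS factors such as Erg, a member, are known to bind endothelial promoters. Capitals mark the ETS letters searched, CAGGAA and a second form of the same motif, CCGGAA, on either strand, which differ at 1 base, so no match counts under both. Emcn lies at chr3:137340828-137341127, Notch4 at chr17:34564045-34564344, Robo4 at chr9:37401722-37402021 and Dll4 at chr2:119325534-119325833, all on the plus strand, and the sequences run 5′ to 3′.
Emcn: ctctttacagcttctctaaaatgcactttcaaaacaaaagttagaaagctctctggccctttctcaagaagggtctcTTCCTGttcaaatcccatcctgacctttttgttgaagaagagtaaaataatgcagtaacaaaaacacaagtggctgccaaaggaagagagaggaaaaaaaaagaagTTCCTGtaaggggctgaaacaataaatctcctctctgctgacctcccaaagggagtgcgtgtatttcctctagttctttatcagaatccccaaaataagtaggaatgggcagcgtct
Notch4: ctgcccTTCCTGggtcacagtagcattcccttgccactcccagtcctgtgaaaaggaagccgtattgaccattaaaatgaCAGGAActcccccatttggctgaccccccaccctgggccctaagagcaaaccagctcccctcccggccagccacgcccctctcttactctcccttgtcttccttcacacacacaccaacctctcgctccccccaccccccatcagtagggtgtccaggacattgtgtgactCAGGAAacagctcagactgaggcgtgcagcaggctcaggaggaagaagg
Robo4: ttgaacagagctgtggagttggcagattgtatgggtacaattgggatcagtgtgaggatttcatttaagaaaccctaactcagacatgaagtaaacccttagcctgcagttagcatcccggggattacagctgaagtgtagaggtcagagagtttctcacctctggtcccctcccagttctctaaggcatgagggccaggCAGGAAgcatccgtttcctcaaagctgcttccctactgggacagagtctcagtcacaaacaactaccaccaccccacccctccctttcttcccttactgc
Dll4: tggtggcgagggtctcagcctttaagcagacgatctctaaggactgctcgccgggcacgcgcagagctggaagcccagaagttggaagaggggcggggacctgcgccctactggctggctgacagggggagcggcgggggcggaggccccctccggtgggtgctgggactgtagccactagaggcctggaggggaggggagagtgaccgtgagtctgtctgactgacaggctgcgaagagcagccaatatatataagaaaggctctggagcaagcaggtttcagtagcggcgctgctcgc
Emcn had 2 such matches, Notch4 3, Robo4 1 and Dll4 0. The windows of Pgf, the member with the largest diet change, were also searched and had 0 matches, and are not shown. Over all members CAGGAA stood in 13 of 28 windows (46.4%), against 30.6% of 32851 mouse windows, and CCGGAA in 3.57% of the member windows, against 14.9% of all. The SOX letters AACAAT, on either strand, were in 10.7% of the member windows and 10.7% of all, and ACGTG, the core of the hypoxia response element, in 10.7% of the member windows and 19.6% of all. A match describes the letters only; no binding was measured.

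The first question was what loss of Acbp in brown adipocytes did to these genes on HFD. Only Emcn, which encodes the capillary and venous surface sialomucin endomucin, passed the test, and it fell. A gene was called at an adjusted p of 0.05 or less in edgeR's quasi-likelihood test with Benjamini-Hochberg adjustment over all genes. With 1 member called of 36, the share for all tested genes was 0.536% in either direction and 0.226% for genes that fell. Of the 36 members 31 had lower and 5 higher fitted levels in HFD knockout libraries, with a median log2 fold change of -0.18, against 0.00 over all genes; 11 members had an unadjusted p under 0.05, against 12.7% of all genes.

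Emcn (ENSMUSG00000054690.18) stood at 11.5, 10.96, 13.1, 10.6 and 10.9 CPM in the 5 HFD knockout libraries, against 14.7, 15.7, 13.8, 15.5 and 15.7 CPM in the 5 HFD wild-type libraries. Each knockout library lay below each wild-type library, a separation seen for 1.94% of all genes in this direction. The log2 fold change was -0.40 ± 0.08 (SE), a 1.32-fold lower level (edgeR quasi-likelihood test, adjusted p = 0.0456). On chow, Emcn had 13.5, 12.9 and 12.8 CPM in knockout libraries, against 14.9, 15.4, 14.7 and 20.2 CPM in wild-type libraries. There too the groups did not overlap, but the difference of -0.32 ± 0.10 did not pass (edgeR, adjusted p = 0.146). The HFD call was narrow. It was kept without chow wild-type 1, chow wild-type 4 or HFD knockout 3 and lost without any 1 of the other 14 libraries, while the log2 fold change stayed between -0.54 and -0.31 over 28 alternatives.

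Several other members of the endothelial surface and its receptors lay lower in HFD knockout libraries without passing the test. Pecam1, the platelet endothelial adhesion molecule CD31, is the best known pan-endothelial marker. It had 93.5, 75.96, 92.7, 74.3 and 80.7 CPM in HFD knockout libraries, against 110.5, 115, 110.1, 94.7 and 94.5 CPM in HFD wild-type libraries. These groups also stood apart, knockout 1 at 93.5 CPM being nearest to wild-type 5 at 94.5 CPM, and the log2 difference was -0.33 ± 0.08 (edgeR, adjusted p = 0.0711). Erg, the ETS transcription factor that maintains endothelial identity, had 14.8, 12.2, 12.1, 10.2 and 10.7 CPM in HFD knockout libraries, against 17.6, 18.7, 17.2, 14.6 and 14.4 CPM in HFD wild-type libraries, groups that overlapped through knockout 1 alone. Its log2 difference was -0.46 ± 0.10 (edgeR, adjusted p = 0.0578).

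Tek, the angiopoietin receptor Tie2, showed 29.5, 26.2, 27.1, 22.99 and 22.4 CPM in HFD knockout libraries, against 34.5, 33.6, 34.2, 33.1 and 26.8 CPM in HFD wild-type libraries. Wild-type 5, the lowest of its group, was the only wild-type library inside the knockout range. Its log2 difference was -0.34 ± 0.08 (edgeR, adjusted p = 0.0700). Cdh5 read 191, 150.2, 190.2, 147 and 146 CPM in HFD knockout libraries, against 197, 217, 210.1, 185 and 205 CPM in HFD wild-type libraries, with a log2 difference of -0.30 ± 0.10 (edgeR, adjusted p = 0.204). Here knockout 1 and 3 reached the wild-type range and knockout 2, 4 and 5, the muscle-rich libraries, did not. Kdr, the main signalling receptor for VEGF-A, ran at 121, 99.1, 119.8, 109 and 119 CPM in HFD knockout libraries, against 126, 131, 115, 128 and 135 CPM in HFD wild-type libraries, a log2 difference of -0.16 ± 0.07 (edgeR, adjusted p = 0.336). Flt1, which binds VEGF-A tightly and signals little, differed by 0.08 ± 0.08 (edgeR, adjusted p = 0.711), with 119, 98.9, 133, 109.9 and 127 CPM in HFD knockout and 98.6, 109, 108, 117 and 122 CPM in HFD wild-type libraries, and the groups overlapped; its sign turns with scaling by library totals.

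Aplnr, the receptor for the peptide apelin, had the widest fitted difference of all members. Levels were 7.92, 5.60, 8.90, 7.80 and 14.2 CPM in HFD knockout libraries, against 24.1, 30.1, 20.4, 10.8 and 8.30 CPM in HFD wild-type libraries. Wild-type 1, 2 and 3 lay above every knockout library, and wild-type 4 and 5 lay within their range. The log2 difference was -1.07 ± 0.32 on HFD (edgeR, adjusted p = 0.143). On chow Aplnr read 4.81, 7.50 and 8.70 CPM in knockout and 14.3, 16.4, 13.2 and 8.95 CPM in wild-type libraries, groups that did not overlap, with a log2 difference of -0.91 ± 0.40 (edgeR, adjusted p = 0.288).

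Among the ligands, edgeR called none between genotypes; DESeq2 called Vegfc on HFD, as did edgeR without HFD wild-type 5. Vegfa, the chief growth factor for blood vessels, had 243, 240.4, 305, 339 and 289.9 CPM in HFD knockout libraries, against 176, 216, 172, 248 and 285 CPM in HFD wild-type libraries. Knockout 3, 4 and 5 lay above all wild-type libraries and knockout 1 and 2 within their range, with a log2 difference of 0.37 ± 0.14 (edgeR, adjusted p = 0.257). Vegfc, the lymphatic growth factor, read 1.14, 0.968, 1.12, 0.736 and 1.18 CPM in HFD knockout libraries, against 1.51, 1.71, 1.84, 1.70 and 1.02 CPM in HFD wild-type libraries. Only wild-type 5 lay inside the knockout range, and the log2 difference was -0.59 ± 0.18 (edgeR, adjusted p = 0.142). Vegfb, a VEGFR1 ligand tied to fatty acid handling in muscle and fat, differed by -0.03 ± 0.08 (edgeR, adjusted p = 0.898), with 88.3, 97.3, 88.3, 92.5 and 83.3 CPM in HFD knockout and 91.2, 104, 81.2, 99.5 and 84.9 CPM in HFD wild-type libraries. Angpt2 differed by 0.29 ± 0.25 (edgeR, adjusted p = 0.692) and Prox1 by -0.41 ± 0.56 (edgeR, adjusted p = 0.818); their levels follow with the diet results.

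**Figure D2:**
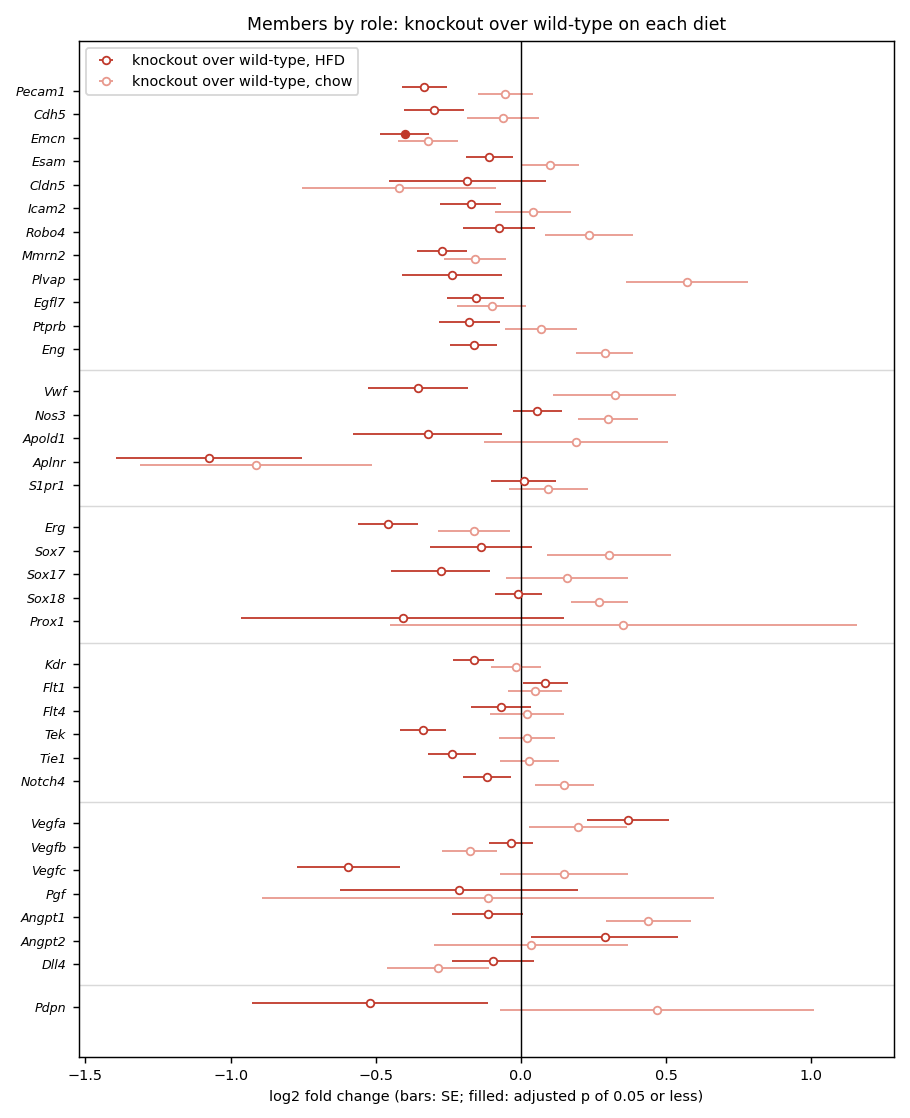
Log2 fold change of knockout over wild-type libraries for the 36 tested members, grouped by role from top to bottom (adhesion and surface, activity and specialised, transcription factors, receptors, ligands, lymphatic), on HFD (dark) and on chow (light). Bars are standard errors and filled points passed an adjusted p of 0.05; the filled point is Emcn on HFD, at -0.40.

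Muscle and hepatocyte transcripts were uneven among the libraries of this comparison. The CPM of the 28 endothelial identity members summed to 1292 and 1302 in HFD knockout 1 and 3, and to 1075, 1054 and 1096 in HFD knockout 2, 4 and 5, which are muscle-rich, against 1256 to 1392 in the 5 HFD wild-type libraries, of which the muscle-rich wild-type 1 had 1315. The mean log2 sum differed by -0.19 between HFD knockout and HFD wild-type libraries, and by -0.04 without the 4 muscle-rich libraries. Without them 0 members were called, 15 of 36 members were higher and 21 lower in HFD knockout libraries, and the median log2 fold change was -0.08, with 2 knockout libraries left. A fit with the number run as a covariate, in which HFD knockout 1 alone is set against the wild-type libraries of its run, gave a median of -0.06. With the muscle score as a covariate in place of leaving libraries out, the median was -0.14, 8 of 36 members were higher and 11 had an unadjusted p under 0.05. Without the 3 hepatocyte-rich HFD libraries (knockout 4 and 5 and wild-type 5), the median was -0.10, 10 of 36 members were higher and the mean log2 sum differed by -0.12. HFD knockout 2, with an endothelial sum of 1075 CPM, had 41.2 CPM of hepatocyte markers. HFD wild-type 5, with an endothelial sum of 1317 CPM, had 270 CPM of them. What part muscle RNA, liver RNA or the number run has in the difference was not tested.

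**Figure D3:**
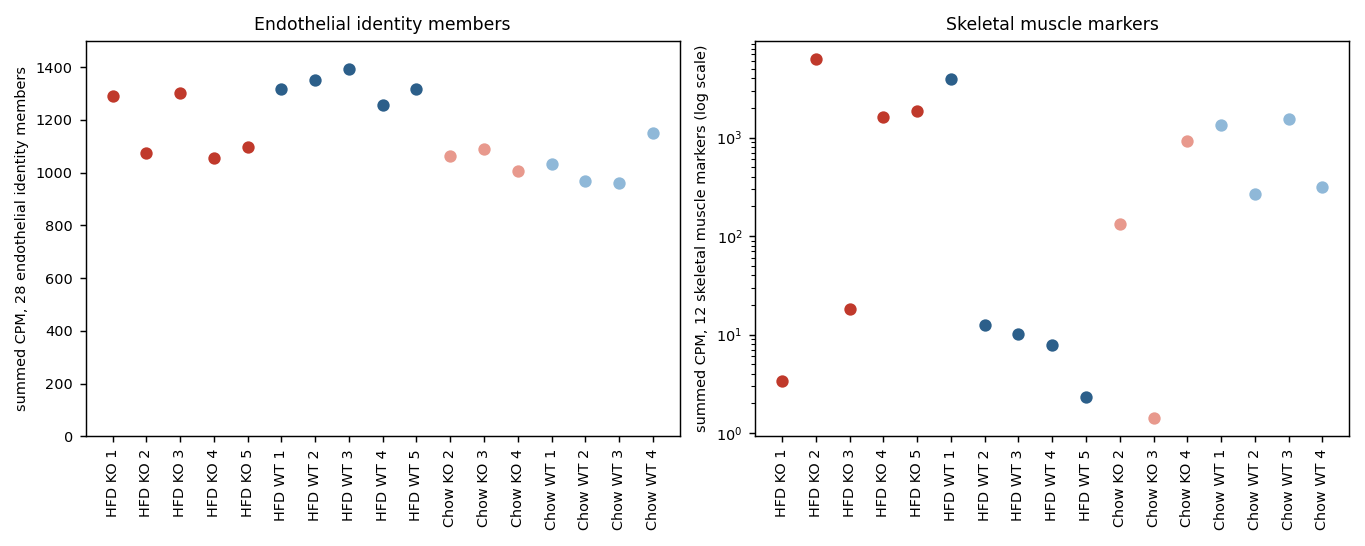
Left, summed CPM of the 28 endothelial identity members in each library; right, summed CPM of 12 skeletal muscle markers (log axis), with libraries in the same order. HFD knockout 2, 4 and 5 have the low endothelial sums of the HFD groups (1054 to 1096 CPM) and high muscle sums, whereas HFD wild-type 1 has a high muscle sum and an endothelial sum of 1315 CPM.

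On chow, no member passed the test between knockout and wild-type libraries, where 1.06% of all genes did. DESeq2 also called 0, and 7 of 36 members had an unadjusted p under 0.05, against 15.2% of all genes. Fitted levels were higher in chow knockout libraries for 24 members and lower for 12, with a median log2 fold change of 0.06, against -0.01 for all genes. The endothelial sum was 1005 to 1089 CPM in chow knockout libraries and 962 to 1150 CPM in chow wild-type libraries. For 6 members the groups did not overlap (12.8% of all genes): Emcn and Aplnr were lower in every knockout library, and Eng, Plvap, Nos3 and Angpt1 higher. Plvap, which forms the diaphragms of fenestrated capillaries, had 10.1, 9.26 and 8.52 CPM in chow knockout and 6.28, 6.27, 5.82 and 6.62 CPM in chow wild-type libraries. With only the chow libraries in the fit it passed, the single member to do so. What part the earlier library numbers of chow wild-type 1 and 2 have in the chow differences was not tested.

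The second question was what HFD did within each genotype. In wild-type mice HFD came with higher levels of most of these genes: 22 of 36 members rose and 1, Angpt1, fell, against 32.1% of all tested genes in either direction, 16.9% up and 15.2% down. The median log2 fold change was 0.54, against 0.02 for all genes, and 30 members had higher fitted levels. The HFD libraries stood wholly above the chow libraries for 17 members and wholly below for 1, against 2415 and 1975 of all 17717 genes. Adhesion and surface genes rose in 9 of 12 cases, receptors in 4 of 6, transcription factors in 3 of 5, ligands in 3 of 7 and the activity genes in 2 of 5. The remaining riser was Pdpn.

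In knockout mice HFD came with 10 members up and 2 down, against 25.8% of all tested genes in either direction, 12.8% up and 13.1% down. The median was 0.24, against 0.03 for all genes. Here the HFD libraries stood wholly above the chow libraries for 13 members and wholly below for 2, against 2739 and 2851 of all 17717 genes. Scaled by library totals, in which a few abundant genes weigh more, 18 rose and 1 fell in knockout mice, and 34 rose and 0 fell in wild-type mice, where Emcn, Kdr, Flt1 and 9 others gained a call and Angpt1 lost its own. Those few genes differ by diet: the top 10 genes of each library took 31.4 to 33.8% of counts in HFD knockout, 27.1 to 31.7% in HFD wild-type, 38.0 to 42.1% in chow knockout and 38.4 to 44.9% in chow wild-type libraries. Library totals move the median of all genes to 0.30 in knockout and 0.49 in wild-type mice. The 2 diet comparisons have no library in common, but each of the 4 groups also enters a genotype comparison, so results across them are not independent.

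**Figure D4:**
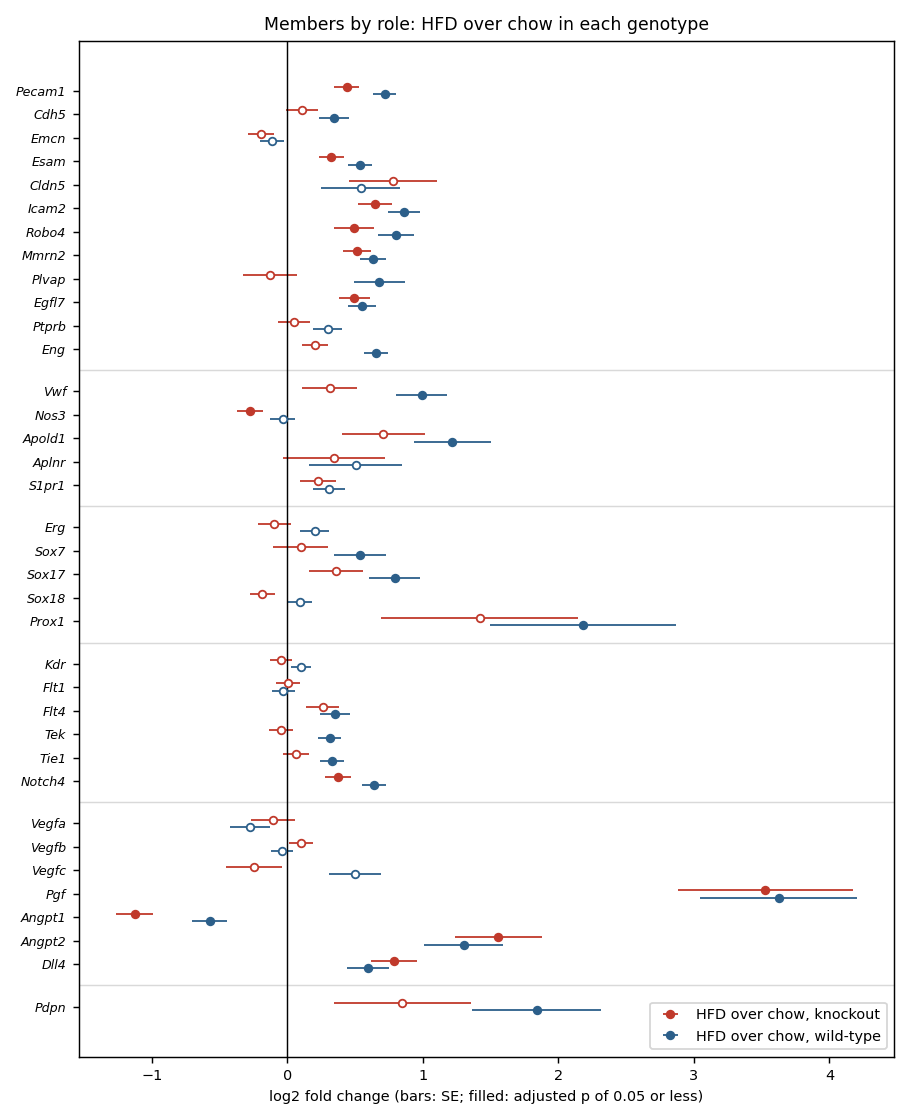
Log2 fold change of HFD over chow for the 36 tested members by role, in knockout (red) and wild-type (blue) libraries. Bars are standard errors and filled points passed an adjusted p of 0.05; Pgf lies farthest right in both genotypes (3.52 and 3.63) and Angpt1 farthest left (-1.13 and -0.57).

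Of the 12 adhesion and surface members, 6 rose on HFD in both genotypes. Pecam1 stood on HFD, as above, over all chow libraries: it had 61.1, 62.1 and 61.4 CPM in chow knockout libraries and 58.1, 64.9, 62.4 and 70.1 CPM in chow wild-type libraries. Its log2 fold change over chow was 0.44 ± 0.09 in knockout mice (edgeR, adjusted p = 0.00291) and 0.72 ± 0.09 in wild-type mice (edgeR, adjusted p = 2.02e-05). Icam2, an adhesion ligand for leukocytes held on resting endothelium, had 6.35, 6.05, 6.42, 5.69 and 6.91 CPM in HFD knockout libraries, against 3.86, 4.40 and 3.79 CPM in chow knockout libraries. In wild-type mice it had 8.29, 8.27, 6.64, 6.27 and 5.99 CPM on HFD, against 3.55, 3.64, 4.54 and 3.87 CPM on chow. Neither pair overlapped, and the log2 fold changes were 0.65 ± 0.13 in knockout (edgeR, adjusted p = 0.00174) and 0.86 ± 0.12 in wild-type mice (edgeR, adjusted p = 5.87e-05).

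Mmrn2, an extracellular matrix protein made by endothelium, had 25.1, 21.5, 25.6, 19.7 and 21.2 CPM in HFD knockout libraries, against 13.98, 17.4 and 16.1 CPM in chow knockout libraries. In wild-type mice the values were 27.6, 27.96, 30.9, 24.9 and 25.3 CPM on HFD, against 18.3, 17.6, 15.7 and 18.9 CPM on chow. No HFD library reached down to a chow library of its genotype, and the log2 fold changes were 0.52 ± 0.10 in knockout (edgeR, adjusted p = 0.00186) and 0.63 ± 0.09 in wild-type mice (edgeR, adjusted p = 0.000128). Egfl7, a secreted factor that guides the tube shape of new vessels, read 34.4, 30.8, 35.7, 27.6 and 30.1 CPM in HFD knockout libraries, against 20.2, 26.6 and 20.8 CPM in chow knockout libraries. For wild-type mice it read 40.7, 36.7, 36.5, 29.7 and 33.2 CPM on HFD, against 25.9, 21.7, 25.4 and 23.5 CPM on chow. Again both pairs stood apart, with log2 fold changes of 0.49 ± 0.11 in knockout (edgeR, adjusted p = 0.00530) and 0.55 ± 0.10 in wild-type mice (edgeR, adjusted p = 0.000974). In an annotation of build GRCm38, 7.37% of the Egfl7 exon length lies in another gene on the same strand, so some of its reads may not be its own.

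Esam, a cell adhesion molecule of tight junctions, showed 22.6, 19.2, 23.5, 19.5 and 20.9 CPM in HFD knockout libraries, against 16.2, 18.4 and 16.01 CPM in chow knockout libraries. Among wild types it showed 21.4, 24.3, 26.3, 21.4 and 20.7 CPM on HFD, against 14.5, 15.7, 17.8 and 15.02 CPM on chow. The HFD libraries lay above those on chow in both genotypes, by 0.33 ± 0.10 in knockout (edgeR, adjusted p = 0.0193) and 0.53 ± 0.09 in wild-type mice (edgeR, adjusted p = 0.000293) on the log2 scale. Robo4, a guidance receptor that quiets vessels, counted 33.2, 26.9, 32.2, 24.98 and 22.4 CPM in HFD knockout libraries, against 18.03, 22.6 and 18.97 CPM in chow knockout libraries. Wild-type libraries counted 28.3, 29.00, 35.1, 26.3 and 28.4 CPM on HFD, against 16.3, 14.8, 15.1 and 21.4 CPM on chow. HFD knockout 5 overlapped the chow knockout range, while the wild-type groups stood apart. The log2 fold changes were 0.49 ± 0.15 in knockout (edgeR, adjusted p = 0.0210) and 0.80 ± 0.13 in wild-type mice (edgeR, adjusted p = 0.000349). In knockout mice the calls of Esam and Robo4 were lost without chow knockout 2 and without chow knockout 4.

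Cdh5, Plvap and Eng passed in wild-type mice and not in knockout mice. Eng, endoglin, a co-receptor for BMP9 on endothelium, had 76.3, 74.8, 79.95, 75.3 and 78.4 CPM in HFD wild-type libraries, against 41.6, 47.2, 53.3 and 53.6 CPM in chow wild-type libraries, and these groups did not overlap. Knockout libraries read 70.04, 58.6, 79.3, 66.01 and 69.9 CPM on HFD, against 60.1, 65.1 and 54.1 CPM on chow, and overlapped. The wild-type log2 fold change of Eng was 0.65 ± 0.09 (edgeR, adjusted p = 5.75e-05). Plvap was uneven in HFD wild-type libraries, at 11.4, 7.27, 15.8, 8.07 and 7.51 CPM, all of them above the chow wild-type values, and HFD knockout libraries had 7.25, 8.32, 8.98, 8.47 and 9.41 CPM. Its wild-type log2 fold change was 0.68 ± 0.19 (edgeR, adjusted p = 0.0108), and limma-voom did not call it. On chow Cdh5 had 168, 145 and 146 CPM in knockout and 157, 148, 138 and 196 CPM in wild-type libraries. The wild-type groups overlapped through chow wild-type 4, and the log2 fold change was 0.35 ± 0.11 (edgeR, adjusted p = 0.0236), a call lost without chow wild-type 1, 2 or 3. Of the other surface members, Emcn (values above), Cldn5 and Ptprb did not pass in either genotype in edgeR. Cldn5, the tight junction claudin, averaged 25.6 ± 5.11 CPM in HFD knockout, 29.1 ± 6.38 in HFD wild-type, 14.9 ± 3.14 in chow knockout and 20.01 ± 10.9 in chow wild-type libraries (SD). Ptprb, the phosphatase VE-PTP that restrains Tie2, averaged 169.6 ± 28.3 CPM in HFD knockout, 192 ± 14.2 in HFD wild-type, 164 ± 6.26 in chow knockout and 156 ± 20.5 in chow wild-type libraries (SD). Ptprb lay at the threshold in wild-type mice (edgeR, adjusted p = 0.0500037), where DESeq2 and limma-voom called it higher on HFD, and DESeq2 called Cldn5 higher on HFD in knockout mice.

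**Figure D5:**
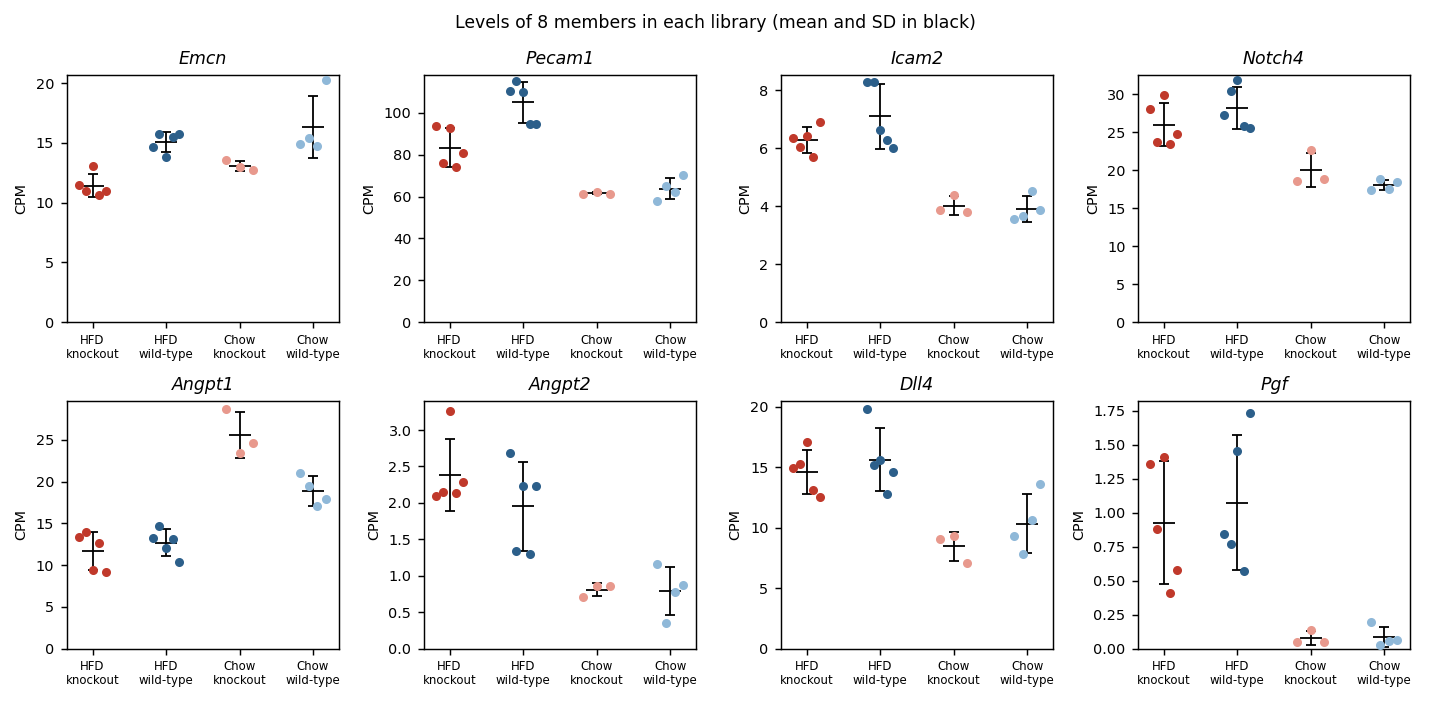
CPM of 8 members in each library, with group mean and SD in black, the y axes starting at 0. Pecam1, Icam2, Notch4, Angpt2, Dll4 and Pgf stand higher on HFD, Angpt1 stands lower, and Emcn is lower in knockout than in wild-type libraries on both diets.

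Of the activity genes, Vwf and Apold1 rose in wild-type mice. Vwf, von Willebrand factor, the clotting protein stored in endothelial granules, had 35.6, 31.7, 45.8, 34.2 and 25.5 CPM in HFD wild-type libraries, against 13.7, 22.8, 18.1 and 14.96 CPM in chow wild-type libraries. That is a log2 fold change of 0.99 ± 0.19 without overlap (edgeR, adjusted p = 0.000974). Knockout libraries overlapped, with 26.2, 20.4, 37.8, 23.1 and 27.5 CPM on HFD, against 20.6, 23.5 and 21.2 CPM on chow. Apold1, an early response gene of stimulated endothelium, had 23.5, 20.5, 21.1, 28.6 and 37.9 CPM in HFD wild-type libraries, against 7.38, 5.89, 16.7 and 15.3 CPM in chow wild-type libraries, a log2 fold change of 1.22 ± 0.28 (edgeR, adjusted p = 0.00404). In knockout mice the HFD libraries, at 27.2, 22.2, 22.4, 16.4 and 17.1 CPM, also lay above those on chow, at 15.2, 13.4 and 10.1 CPM, but the test was not passed.

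Nos3, the endothelial nitric oxide synthase, fell in knockout mice. It had 23.8, 20.8, 20.6, 20.5 and 18.4 CPM in HFD knockout libraries, against 24.9, 26.7 and 23.9 CPM in chow knockout libraries, groups just apart. The log2 fold change was -0.28 ± 0.10 (edgeR, adjusted p = 0.0487), and the call was kept in 6 of 27 alternatives. Wild-type libraries held 19.2, 20.7, 24.3, 19.1 and 16.7 CPM on HFD, against 20.1, 19.6, 21.6 and 20.7 CPM on chow. Of its exon length 25.2% overlaps an antisense transcript in the GRCm38 annotation, and since the strand setting is not given, reads of the pair cannot be told apart. S1pr1, the sphingosine 1-phosphate receptor that stabilises junctions, averaged 61.95 ± 6.22 CPM in HFD knockout, 61.5 ± 8.85 in HFD wild-type, 53.02 ± 1.74 in chow knockout and 49.7 ± 8.63 in chow wild-type libraries (SD). It was not called in edgeR (adjusted p = 0.0596 for HFD over chow in wild-type mice), but DESeq2 called it there.

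Sox17, Sox7 and Prox1 were the transcription factors that rose in wild-type mice, and none passed in knockout mice. Sox17, which directs arterial fate, had 8.62, 7.48, 9.10, 8.39 and 9.27 CPM in HFD wild-type libraries, against 7.41, 4.38, 3.51 and 4.50 CPM in chow wild-type libraries, with a log2 fold change of 0.79 ± 0.19 (edgeR, adjusted p = 0.00427). The groups came close at chow wild-type 1 and HFD wild-type 2. Knockout libraries held 8.64, 7.60, 7.29, 6.93 and 4.95 CPM on HFD, against 5.87, 5.97 and 4.72 CPM on chow. In the GRCm38 annotation 16.8% of the Sox17 exon length overlaps a transcript on the opposite strand, whose reads cannot be told apart. Sox7, a related factor, had 19.2, 15.99, 15.7, 13.3 and 15.5 CPM in HFD wild-type libraries, against 12.5, 8.14, 8.04 and 15.3 CPM in chow wild-type libraries, with 0.54 ± 0.19 on the log2 scale (edgeR, adjusted p = 0.0402). This call was lost without any 1 of HFD wild-type 1, 2, 3 and 5, chow wild-type 2 and 3, and HFD knockout 4. Sox7 read 14.8, 13.9, 17.9, 13.9 and 12.1 CPM in HFD knockout libraries, against 13.5, 17.04 and 10.2 CPM in chow knockout libraries. Sox18, a further factor of that family, averaged 20.1 ± 0.884 CPM in HFD knockout, 20.2 ± 2.26 in HFD wild-type, 22.8 ± 2.30 in chow knockout and 18.9 ± 1.85 in chow wild-type libraries (SD), and on chow Erg averaged 12.8 ± 0.939 CPM in knockout and 14.3 ± 1.44 CPM in wild-type libraries.

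Lymphatic members were scarce. Prox1 had 2.56, 0.628, 0.827, 0.268 and 0.623 CPM in HFD wild-type libraries, against 0.394, 0.0274, 0.139 and 0.302 CPM in chow wild-type libraries. HFD wild-type 1, the muscle-rich library of that group, was the highest, and the wild-type log2 fold change of 2.18 ± 0.69 (edgeR, adjusted p = 0.0232) no longer passed without it, nor without chow wild-type 2 or 3. The call was kept with the muscle score as a covariate, and was lost with limma-voom and with the 2 groups alone. Knockout libraries read 0.575, 1.23, 0.248, 0.703 and 0.925 CPM on HFD, against 0.172, 0.347 and 0.303 CPM on chow. On HFD the muscle-rich knockout 2, 4 and 5 were again the highest. Of these, knockout 4 and 5 are also hepatocyte-rich, as is wild-type 5, at 0.623 CPM of Prox1. What part muscle or liver RNA has in the Prox1 level was not tested. Pdpn, podoplanin, made by lymphatic endothelium and by stromal cells, had 1.79, 0.911, 3.75, 0.715 and 0.796 CPM in HFD wild-type libraries, against 0.197, 0.521, 0.390 and 0.665 CPM in chow wild-type libraries. The lowest HFD library lay just above the highest chow library, and the log2 fold change was 1.84 ± 0.48 (edgeR, adjusted p = 0.00789). In knockout mice Pdpn had 0.929, 1.03, 1.40, 1.06 and 1.12 CPM on HFD, against 0.467, 0.509 and 0.861 CPM on chow, without overlap and without passing. Flt4, the VEGF-C receptor, had 10.7, 11.1, 11.96, 9.44 and 10.6 CPM in HFD wild-type libraries, against 8.25, 8.14, 7.32 and 10.1 CPM in chow wild-type libraries. The groups overlapped and the log2 fold change was 0.35 ± 0.11 (edgeR, adjusted p = 0.0238), lost without chow wild-type 1, 2 or 3 or HFD wild-type 3. Flt4 in knockout libraries stood at 11.9, 9.88, 11.4, 9.12 and 9.15 CPM on HFD, against 8.84, 9.49 and 7.40 CPM on chow.

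The receptors split. Notch4, a Notch receptor largely restricted to endothelium, rose in both genotypes. It had 28.03, 23.8, 29.9, 23.5 and 24.8 CPM in HFD knockout libraries, against 18.6, 22.7 and 18.8 CPM in chow knockout libraries. In wild-type mice Notch4 had 27.3, 30.4, 31.9, 25.8 and 25.6 CPM on HFD, against 17.5, 18.8, 17.5 and 18.5 CPM on chow. All HFD libraries lay above all chow libraries of their genotype, by 0.37 ± 0.10 in knockout (edgeR, adjusted p = 0.0105) and 0.64 ± 0.09 in wild-type mice (edgeR, adjusted p = 8.16e-05) on the log2 scale, the knockout call being lost without chow knockout 2 or 4. Tek on chow had 27.2, 27.2 and 25.2 CPM in knockout and 25.8, 25.8, 25.6 and 27.3 CPM in wild-type libraries, and it rose in wild-type mice, by 0.31 ± 0.08 (edgeR, adjusted p = 0.0102). Tie1, its partner receptor, had 41.3, 45.4, 45.3, 39.8 and 36.4 CPM in HFD wild-type libraries, against 35.6, 36.2, 32.4 and 28.4 CPM in chow wild-type libraries. These just failed to overlap, with 0.33 ± 0.09 on the log2 scale (edgeR, adjusted p = 0.00998). Tie1 in knockout libraries gave 38.03, 33.9, 39.1, 33.1 and 32.3 CPM on HFD, against 32.8, 37.2 and 31.4 CPM on chow.

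The VEGF-A receptors did not pass in either diet comparison in edgeR with TMM scaling. Kdr on chow had 117, 119 and 115 CPM in knockout and 124, 114, 104 and 132 CPM in wild-type libraries, all inside the span of 99.1 to 135 CPM of the HFD libraries. Flt1 on chow had 116, 123 and 113 CPM in knockout and 109.8, 110.5, 109 and 124 CPM in wild-type libraries. Aplnr did not pass either.

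The ligands held the largest changes of the set, in both directions. Pgf (placental growth factor, ENSMUSG00000004791.8, chromosome 12), a VEGFR1 ligand, had 1.36, 0.881, 1.41, 0.409 and 0.577 CPM in HFD knockout libraries, against 0.0491, 0.139 and 0.0465 CPM in chow knockout libraries. In wild-type mice it had 0.839, 0.770, 1.45, 0.572 and 1.74 CPM on HFD, against 0.197, 0.0274, 0.0557 and 0.0605 CPM on chow. Every HFD library was above every chow library, but chow libraries held only 1 to 7 counts of Pgf, so the size of the fold change is loose: 3.52 ± 0.65 in knockout (edgeR, adjusted p = 0.00108) and 3.63 ± 0.58 in wild-type mice (edgeR, adjusted p = 0.000243) on the log2 scale.

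Angpt1 and Angpt2 moved in opposite directions. Angpt1 (ENSMUSG00000022309.10, chromosome 15) had 13.4, 14.01, 9.44, 12.7 and 9.16 CPM in HFD knockout libraries, against 28.7, 23.5 and 24.6 CPM in chow knockout libraries. Wild-type libraries had 13.2, 14.6, 11.99, 13.2 and 10.4 CPM on HFD, against 21.05, 19.4, 17.1 and 17.9 CPM on chow. It fell in both genotypes without overlap, by 1.13 ± 0.14 in knockout (edgeR, adjusted p = 4.3e-05) and 0.57 ± 0.13 in wild-type mice (edgeR, adjusted p = 0.00337) on the log2 scale; with library totals the wild-type difference was -0.10 and was not called. Of its exon length 14.2% overlaps a transcript on the opposite strand, whose reads cannot be told apart. Angpt2 (ENSMUSG00000031465.7, chromosome 8) had 2.09, 2.15, 3.26, 2.14 and 2.29 CPM in HFD knockout libraries, against 0.712, 0.856 and 0.861 CPM in chow knockout libraries. Angpt2 in wild-type mice read 2.68, 1.33, 2.23, 1.296 and 2.22 CPM on HFD, against 1.16, 0.356, 0.779 and 0.877 CPM on chow. It rose without overlap in both, by 1.56 ± 0.32 in knockout (edgeR, adjusted p = 0.00253) and 1.302 ± 0.29 in wild-type mice (edgeR, adjusted p = 0.00304).

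Dll4, the Notch ligand of sprouting tips, had 14.97, 15.3, 17.1, 13.1 and 12.6 CPM in HFD knockout libraries, against 9.04, 9.28 and 7.10 CPM in chow knockout libraries. In wild-type mice Dll4 had 19.8, 15.1, 15.6, 12.8 and 14.6 CPM on HFD, against 9.33, 7.84, 10.6 and 13.6 CPM on chow. The knockout groups stood apart and the wild-type groups overlapped through chow wild-type 4. The log2 fold changes were 0.78 ± 0.17 in knockout (edgeR, adjusted p = 0.00336) and 0.60 ± 0.15 in wild-type mice (edgeR, adjusted p = 0.00738). Vegfa, Vegfb and Vegfc did not pass with diet in edgeR with TMM scaling. Vegfa on chow had 352, 319 and 244 CPM in knockout and 277, 274, 263 and 250.2 CPM in wild-type libraries. Vegfb on chow had 89.3, 79.3 and 82.7 CPM in knockout and 109, 93.4, 85.4 and 91.6 CPM in wild-type libraries. Vegfc averaged 1.22 ± 0.108 CPM in chow knockout (SD, n = 3) and 1.10 ± 0.184 CPM in chow wild-type libraries (SD, n = 4).

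Set side by side, 11 members were called in both diet comparisons, each in the same direction: Pecam1, Esam, Egfl7, Robo4, Mmrn2, Icam2, Notch4, Pgf, Angpt2 and Dll4 up, and Angpt1 down. Another 12 were called in wild-type mice alone, Nos3 in knockout mice alone, and 12 in neither. Of all tested genes 32.1% were called in wild-type and 25.8% in knockout mice. How many were called in both, or changed more in wild-type mice, was not counted for all genes. The absolute log2 fold change was larger in wild-type mice for 28 of 36 members. That contrast did not pass as a difference of its own: the genotype by diet interaction called 0 members in edgeR, where 0.0903% of all genes passed, and 0 in DESeq2, with 8 members at an unadjusted p under 0.05, against 10.4% of all genes in edgeR. Its median was -0.24 over the members, against 0.00 over all genes, with 30 of 36 below 0. That median became -0.11 when the muscle-rich libraries were left out and -0.09 when the number run was a covariate. In the latter fit HFD knockout 1 alone stands for its group. Summed over the endothelial identity members, the mean log2 level on HFD over chow differed by 0.14 in knockout and 0.37 in wild-type mice, and the knockout value was 0.30 without the muscle-rich libraries. Those left out are all HFD libraries, so HFD knockout 1 and 3 remained. Every chow knockout library stayed in, with chow knockout 4 at 931 CPM of muscle markers.

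Beyond the members, of 26 other endothelial genes 9 rose and 3 fell on HFD in knockout mice, and 16 rose and 1 fell in wild-type mice. Of all tested genes 12.8% rose and 13.1% fell in knockout mice, and 16.9% rose and 15.2% fell in wild-type mice. These shares apply to the further lists as well. Rasip1, needed for vessel lumens, averaged 21.5 ± 1.68 CPM in HFD knockout and 13.9 ± 1.43 CPM in chow knockout libraries (edgeR, adjusted p = 9.54e-05). Its wild-type means were 22.5 ± 1.78 CPM on HFD and 13.9 ± 0.759 CPM on chow (edgeR, adjusted p = 1.14e-05). Gpihbp1, which carries lipoprotein lipase to the capillary lumen, averaged 35.5 ± 3.61 CPM in HFD knockout and 26.4 ± 4.10 CPM in chow knockout libraries (edgeR, adjusted p = 0.00528), and 37.1 ± 2.33 CPM in HFD wild-type and 26.7 ± 1.37 CPM in chow wild-type libraries (edgeR, adjusted p = 0.00094). Cd34, Ramp2, Lmo2, Tal1, Ecscr, Vcam1 and She also rose in both genotypes, and Tspan18 fell in both. Mcam, Ets1, Klf2, Klf4, Clec14a, Ly6c1 and Ushbp1 rose in wild-type mice, and Car4 and Cyyr1 fell in knockout mice; the interaction called 0 of the 26 in edgeR, with 5 at an unadjusted p under 0.05, against 10.4% of all genes.

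Between genotypes on HFD, 1 of the 26 was called: Car4, the capillary carbonic anhydrase, averaged 11.02 ± 0.937 CPM in HFD knockout and 14.1 ± 1.26 CPM in HFD wild-type libraries, without overlap (edgeR, adjusted p = 0.0491). The median over the 26 was -0.24, against 0.00 for all genes. On chow 0 of the 26 were called by edgeR, 4 having an unadjusted p under 0.05, against 15.2% of all genes. The 2 with the smallest p were Ecscr and Clec14a. Of all genes 0.536% were called between genotypes on HFD and 1.06% on chow.

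Of 20 further angiogenic signalling genes, 10 rose and 3 fell on HFD in knockout mice, and 11 rose and 1 fell in wild-type mice. Those that rose in both were Vegfd, Apln (the ligand of Aplnr), Adm, Thbs1, Thbs2, Vash1, Sema3c and Vhl, of which Thbs1, Thbs2 and Vash1 are known inhibitors of angiogenesis. Vash1 averaged 5.18 ± 0.926 CPM in HFD knockout and 2.12 ± 0.413 CPM in chow knockout libraries (edgeR, adjusted p = 0.000149), and 6.66 ± 1.06 CPM in HFD wild-type and 2.23 ± 0.378 CPM in chow wild-type libraries (edgeR, adjusted p = 7.75e-06). Angptl4 and Egln1 rose in knockout mice, Pdgfb and Cxcl12 in wild-type mice, Ppargc1a fell in knockout mice and Egln3 in wild-type mice. Nrp1, a VEGF co-receptor, fell in knockout mice, at 160.3 ± 11.3 CPM on HFD and 194 ± 13.2 CPM on chow (edgeR, adjusted p = 0.0120). Nrp2, the VEGF-C co-receptor, fell in knockout and rose in wild-type mice: it averaged 162 ± 16.4 CPM in HFD knockout and 201 ± 4.93 CPM in chow knockout libraries (edgeR, adjusted p = 0.0160), and 191 ± 18.8 CPM in HFD wild-type and 162 ± 8.15 CPM in chow wild-type libraries (edgeR, adjusted p = 0.0389). The interaction for Nrp2 did not pass (edgeR, adjusted p = 0.0929). On HFD 0 of the 20 were called between genotypes by edgeR, 5 having an unadjusted p under 0.05, against 12.7% of all genes. Nrp1 and Nrp2 had the smallest p. On chow 1 was called, Ppargc1a, a coactivator of mitochondrial genes that also induces Vegfa, at 177 ± 48.6 CPM in chow knockout and 58.7 ± 10.6 CPM in chow wild-type libraries (edgeR, adjusted p = 0.0161).

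Of 14 Notch and BMP signalling genes, 5 rose and 1 fell on HFD in knockout mice and 7 rose and 1 fell in wild-type mice. Jag2, Ephb4, Acvrl1, Smad7 and Id3 rose in both, Hey1 and Hes1, targets of Notch, in wild-type mice, while Id1 fell in knockout and Bmpr2 in wild-type mice. Acvrl1, the BMP9 receptor ALK1, averaged 19.7 ± 1.88 CPM in HFD knockout and 14.1 ± 0.594 CPM in chow knockout libraries (edgeR, adjusted p = 0.00329), and 17.8 ± 2.13 CPM in HFD wild-type and 10.4 ± 1.03 CPM in chow wild-type libraries (edgeR, adjusted p = 2.71e-05). Between genotypes 0 of the 14 were called by edgeR on HFD, 6 having an unadjusted p under 0.05, led by Ephb4 and Efnb2. On chow 0 were called and 5 had such a p, led by Acvrl1 and Smad6. The shares of all genes with an unadjusted p under 0.05 were 12.7% on HFD and 15.2% on chow. Of 7 other lymphatic genes Stab1 rose on HFD in both genotypes and Nr2f2 in wild-type mice; between genotypes 0 were called by edgeR, 2 having an unadjusted p under 0.05 on HFD (Nr2f2 and Stab1) and 0 on chow.

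Markers of other cell types were compared as well. Of 8 macrophage markers 6 rose on HFD in knockout mice, with a median log2 fold change of 1.06, and 7 in wild-type mice, with a median of 1.14. Their CPM summed to 81.2 to 178 in HFD knockout, 101 to 234 in HFD wild-type, 58.5 to 83.6 in chow knockout and 64.95 to 72.9 in chow wild-type libraries. Fibroblast markers rose in 1 of 9 cases in knockout mice (Dpt) and in 2 of 9 in wild-type mice (Dpt and Mfap5). In wild-type mice 10 of 12 hepatocyte markers were called higher on HFD, but unevenly, the groups standing apart for 4 of the 12. Hepatocyte CPM summed to 48.6, 32.1, 90.8, 20.7 and 270 in HFD wild-type libraries, against 34.1 to 37.4 in chow wild-type libraries. HFD wild-type 2 and 4 thus lay below every chow wild-type library. Of 10 brown adipocyte markers 1 fell on HFD in knockout mice (Adipoq), and 1 rose (Plin1) and 3 fell (Cidea, Fabp4 and Elovl3) in wild-type mice; between genotypes Elovl3 rose on HFD and Dio2 on chow. Of 5 red blood cell genes Hbb-bt rose on HFD in knockout mice, and of 6 mesothelial genes, 2 of them tested, Lrrn4 fell on HFD in both genotypes and Krt7 in wild-type mice. The 12 skeletal muscle markers had 0 calls by edgeR in every comparison, and 0 had an unadjusted p under 0.05. Pericyte and smooth muscle genes, the partners of endothelium in small vessels, were mostly not called: of 12, Higd1b rose and Pdgfrb fell on HFD in knockout mice, and 0 were called in wild-type mice by edgeR, 3 having an unadjusted p under 0.05. In that wild-type comparison 7515 of all 17717 genes had an unadjusted p under 0.05. Between genotypes on HFD Cspg4, the pericyte proteoglycan NG2, fell, with 105 ± 5.47 CPM in HFD knockout and 128 ± 4.96 CPM in HFD wild-type libraries, without overlap (edgeR, adjusted p = 0.0430). Every marker of the macrophage, pericyte, fibroblast, brown adipocyte, red blood cell and skeletal muscle lists averaged at least 0.1 CPM in each group. What part other cell types have in the members' changes was not tested.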

How the data were processed

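The authors deposited unscaled whole-number counts per gene for 17 libraries in 1 table; all columns were used. Per the labels' protocols, total RNA was prepared with a NucleoSpin kit and turned into libraries with TruSeq v2. The tools in the submitters' processing notes are STAR 2.7.8a and RSEM 1.3.0, besides FastQC and DESeq, with build GRCm39; no source used here gives the strand setting or annotation. RSEM shares ambiguous reads among genes, so counts may be rounded estimates, and genes with close paralogs are less certain.

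Counts were fitted in edgeR 4.0.16 (R 4.3.3) after filterByExpr, which left 17717 genes, with trimmed mean of M-values (TMM) scaling and 1 coefficient per group over all 17 libraries. Quasi-likelihood tests were two-sided, with Benjamini-Hochberg adjustment over all tested genes in each of 5 comparisons. CPM are counts scaled to an equal TMM-adjusted library total. Counts of replicate libraries differed by more than sampling noise in every pair. The scripts were tested on simulated data. DESeq2 1.42.0 and limma-voom (limma 3.58.1) served as alternatives.

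The members, their roles and the further lists were chosen with earlier results of these data known. Named with values in each library are members called in any comparison and 9 fixed ones (Pecam1, Cdh5, Kdr, Flt1, Tek, Vegfa, Vegfb, Angpt2 and Prox1), with Erg, Aplnr and Vegfc added after their values were seen; of the further lists, the called genes, or else the 2 with the smallest p. Exon lengths come from the GENCODE M21 annotation of GRCm38, in which 30 of the 37 members overlap no other gene's exons.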

Additional observations from a re-analysis of the deposited data

Results flagged for a closer look

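A sample stood far from the rest of its group for 5 members, in 6 of 111 group and member combinations with 4 or 5 libraries; chance gives about 1 in 20. Angpt2 was 3.26 CPM in HFD knockout 3 and 2.09 to 2.29 CPM in the other 4. Prox1 was 2.56 CPM in HFD wild-type 1 and 0.268 to 0.827 CPM in the other 4. Tek was 26.8 CPM in HFD wild-type 5 and 33.1 to 34.5 CPM in the other 4. Chow wild-type 4 was high for 3 members: Emcn at 20.2 CPM, with 14.7 to 15.4 CPM in the other 3, Flt1 at 124 CPM, with 109 to 110.5 CPM, and Tek at 27.3 CPM, with 25.6 to 25.8 CPM.

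For Pdpn, Plvap and Vegfc every knockout library lay on one side of the wild-type mean on HFD and on the other side on chow. For Pdpn and Plvap this held for the mean only, which HFD wild-type 1 and 3 raised. Pdpn in HFD knockout libraries, at 0.929 to 1.40 CPM, lay wholly above the HFD wild-type median of 0.911 CPM. Plvap, at 7.25 to 9.41 CPM, lay on both sides of its HFD wild-type median of 8.07 CPM. Vegfc, at most 1.18 CPM in HFD knockout libraries, lay below its HFD wild-type median of 1.70 CPM as well. The genotype difference on HFD minus that on chow was -0.99 for Pdpn, -0.81 for Plvap and -0.74 for Vegfc on the log2 scale. The edgeR interaction test called none of the 3, with adjusted p of 0.650 for Pdpn, 0.303 for Plvap and 0.364 for Vegfc.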

How the results depend on the processing

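Of the 23 members called on HFD in wild-type mice, 16 were called in each of 26 alternatives; Cdh5, Flt4, Sox7, Plvap, Prox1, Pdpn and Angpt1 were lost in at least 1. In knockout mice 5 of 12 were called in each of 27, and Esam, Robo4, Nos3, Angpt2, Dll4, Notch4 and Icam2 were lost in at least 1. Library totals gave 19 calls in knockout mice. Of the 27, the fit with the number run as a covariate sets HFD knockout 1 alone against the chow knockout libraries, so its calls are not counted here. Between genotypes on HFD, where 1 member was called, 5 were called with library totals, 6 with DESeq2 and 2 with limma-voom. There 0 were called with no low-count filter, with the 2 groups alone, with the replicate block, without the muscle-rich libraries, with the muscle score or the number run as a covariate, and without the 3 liver-rich libraries, an alternative chosen after seeing the data. Leaving out 1 library gave 0 to 5 calls, 5 without HFD wild-type 5 (Pecam1, Tek, Erg, Aplnr and Vegfc) and 3 without HFD knockout 1 (Pecam1, Tek and Erg). Between genotypes on chow 1 was called with the 2 groups alone. The cause of these changes was not tested.

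Among members not called, the HFD genotype difference of Flt1 turned to -0.057 with library totals. With single libraries left out that of Vegfb ran from -0.076 to 0.012, above 0 without HFD wild-type 2, and that of Prox1 from -0.67 to 0.34, above 0 without HFD wild-type 1. The endothelial sum differed between genotypes on HFD by -0.040 without the muscle-rich libraries. On HFD over chow it differed by 0.406 in knockout and 0.845 in wild-type mice with library totals. Without the muscle-rich libraries, all of them HFD, it differed by 0.302 in knockout mice. With library totals, the members' median lay 0.53 above that of all genes in wild-type mice.

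Same-numbered libraries did not deviate together (correlations of -0.718 to 0.213 on HFD and -0.151 to -0.0757 on chow), so the numbers were not taken to pair the samples, and no library correlated best with its own number; with the replicate block 0 members were called on chow as well. Alternatives were not run for genes outside the members. Pgf, Prox1, Esm1, Pdpn and Vegfc rest on low counts.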
